A study of Mus musculus with 68 samples.

Results

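The levels of Sox10, Foxd3, Sox2, Mbp, Cdh19, Erbb3, S100b and Ngfr are described here in each culture of the series, 8 of the 27179 Entrez Gene identifiers of the count table. They were chosen by name as genes of Schwann cells and of the neural crest, after the level of several of them in 1 culture, WT 12M S6, had been seen. The levels in that culture are therefore given as a description, with no test, and the tests below leave it out wherever WT 12M is compared.

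The neural crest is an embryonic population that leaves the dorsal neural tube and gives rise, among other cells, to the Schwann cells of peripheral nerves. Sox10 holds this lineage together from the crest to the mature glial cell, Foxd3 and Sox2 act in its early and immature stages, and neuregulin signalling through Erbb3 keeps its precursors alive and dividing. Bone is an innervated tissue, and Schwann cells accompany the nerves that enter the marrow of long bones.

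RNA was sequenced from primary mesenchymal stromal cells grown from mouse long bones, harvested with trypsin. Het 3M denotes Ezh2fl/+:Prrx-1-Cre mice aged 3 months, WT 3M Ezh2+/+:Prrx-1-Cre mice of that age, and Het 12M and WT 12M the same genotypes at 12 months. Every mouse thus carried Prrx-1-Cre (also spelled Prxx-1-Cre in the labels), a recombinase driven in the mesenchyme of the limb bud, and the Het mice had in addition 1 floxed allele of Ezh2, the histone H3 lysine 27 methyltransferase of Polycomb repressive complex 2. There were 3 cultures of Het 3M (S8, S10 and S14), 4 of WT 3M (S3, S4, S5 and S12), 6 of Het 12M (S1, S9, S11, S15, S16 and S17) and 4 of WT 12M (S2, S6, S7 and S13), while the series text names 3 biological samples per group. The comparisons set the Het against the WT genotype at each age, and 12 against 3 months in each genotype. The labels do not say whether each culture came from 1 mouse, so p-values measure the spread between these cultures.

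Gene starts and ends below are from a RefSeq annotation of GRCm38.p6. Strands, exons and overlaps between genes are from GENCODE M21 on GRCm38, the assembly that mm10 names. The 300 bases around the transcription start, 250 before and 50 after it, are shown for the members that the RefSeq promoter table (GRCm38.p6) held, Foxd3, Sox2, S100b and Ngfr, because 3 of these are high together in WT 12M S6 and the other is not. Capitals mark CG dinucleotides and the letters ACAAAG or ACAATG, which HMG-box factors of the Sox family can bind and which were searched on both strands. The 2 motifs differ at a single letter and hold no CG. Sequences run 5′ to 3′ on the strand of the gene.
Foxd3 lies at chr4:99656049-99656348 on the plus strand, Sox2 at chr3:34649745-34650044 on the plus strand, S100b at chr10:76253586-76253885 on the plus strand and Ngfr at chr11:95587649-95587948 on the minus strand.
Foxd3: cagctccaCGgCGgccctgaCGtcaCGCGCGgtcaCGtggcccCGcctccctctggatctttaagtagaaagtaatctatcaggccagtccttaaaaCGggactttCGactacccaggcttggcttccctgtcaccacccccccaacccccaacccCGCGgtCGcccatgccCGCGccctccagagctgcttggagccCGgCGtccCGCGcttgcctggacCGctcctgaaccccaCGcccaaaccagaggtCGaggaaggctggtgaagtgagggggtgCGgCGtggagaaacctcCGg
Sox2: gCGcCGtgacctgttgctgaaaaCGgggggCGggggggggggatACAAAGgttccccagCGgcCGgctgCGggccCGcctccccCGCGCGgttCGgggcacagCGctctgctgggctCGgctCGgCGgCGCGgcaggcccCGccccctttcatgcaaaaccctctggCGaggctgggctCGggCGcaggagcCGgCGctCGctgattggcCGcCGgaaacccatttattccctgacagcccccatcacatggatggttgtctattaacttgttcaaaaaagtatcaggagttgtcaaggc
Ngfr: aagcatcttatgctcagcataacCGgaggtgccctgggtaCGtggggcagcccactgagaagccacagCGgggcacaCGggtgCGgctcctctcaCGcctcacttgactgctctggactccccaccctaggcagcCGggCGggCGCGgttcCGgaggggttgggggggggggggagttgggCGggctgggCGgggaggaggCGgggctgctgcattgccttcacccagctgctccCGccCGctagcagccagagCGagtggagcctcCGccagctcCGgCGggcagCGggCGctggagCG
S100b: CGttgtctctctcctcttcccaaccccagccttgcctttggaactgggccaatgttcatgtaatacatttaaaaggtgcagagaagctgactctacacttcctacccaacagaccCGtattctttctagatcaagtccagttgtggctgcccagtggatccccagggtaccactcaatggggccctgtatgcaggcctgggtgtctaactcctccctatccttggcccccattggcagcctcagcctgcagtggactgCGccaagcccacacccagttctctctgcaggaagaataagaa
The windows of Foxd3, Sox2 and Ngfr held 25, 27 and 23 CG dinucleotides, and that of S100b held 3. Over the 32851 promoters of the table the median was 7, so the first 3 lie in CG-rich starts and S100b does not. As few CG were found in 83.1%, 85.8% and 80.0% of promoters for Foxd3, Sox2 and Ngfr, and in 31.4% for S100b. The contrast rests on S100b alone, and Sox10, Erbb3, Cdh19 and Mbp have no window here. Its bearing on the levels in S6 was not tested. ACAAAG was present in the Sox2 window and in 18.7% of all promoters, and ACAATG was in none of these 4 windows and in 12.6% of all promoters. A match describes the letters of the window and nothing more.

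The libraries had 17326547 to 20001884 counts in Het 3M, 19875204 to 24212728 in WT 3M, 13687876 to 28597221 in Het 12M and 16856720 to 23575978 in WT 12M. Levels are CPM, counts scaled to a common library size, after TMM scaling unless stated. Ezh2, the targeted gene, ran from 8.47 to 12.8 CPM in Het 3M, against 9.17 to 14.3 in WT 3M, and from 8.61 to 25.2 CPM in Het 12M, against 7.63 to 35.7 in WT 12M. A count over the whole gene also takes in exons outside a deleted part, so it does not check recombination. Of the 4 WT 12M libraries, 3 held Xist or Y-linked transcripts against the sex on their label, here given without TMM scaling. Xist stood at 375 CPM in S2 and at 308 in S13, both marked as male, where 4 Y-linked genes averaged 0 and 0.136 CPM. In S6, marked as female, Xist stood at 0.195 CPM, beside a Y-linked average of 28.8 CPM. In S7, also marked as female, both kinds were present, Xist at 78.8 CPM and the Y-linked average at 33.7. Whether these libraries carry the right group label was not tested, and each result with WT 12M refers to libraries that bear that name. The cultures that stand apart below are WT 12M S6, Het 12M S9 with 30050 CPM of the macrophage lysozyme gene Lyz2, and Het 12M S15, which had 0 counts of 6 of the 8 genes.

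In WT 12M S6, 7 of the 8 genes had their highest level of all 17 cultures, and each of the 7 was more than 2-fold above the next culture. Of the 14897 genes that passed the filter on low counts, 10.6% were highest in S6 and 1.81% were more than 2-fold above every other culture there. These shares are given beside the members and nothing is read from them, since the members were chosen for this culture. All 8 genes passed that filter, also when S6 was left out. S100b was the exception, with rank 14 of 17 in S6. In bulk RNA of this kind, fewer cells of a type and less RNA per cell cannot be told apart.

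Sox10 (Entrez 20665; chr15:79154913-79164490, minus strand) encodes the HMG-box factor that specifies and maintains the Schwann lineage. It stood at 0.249, 0.670 and 1.76 CPM in Het 3M S8, S10 and S14, against 1.52, 3.89, 0.336 and 3.79 CPM in WT 3M S3, S4, S5 and S12. Over the 6 Het 12M cultures it ran from 0 to 1.71 CPM with a median of 0.902, against 1.89, 231, 1.49 and 0.190 CPM in WT 12M S2, S6, S7 and S13. Every culture other than S6 therefore lay under 4 CPM, and S6 was 59.3-fold above the highest of them, WT 3M S4. The 4803 counts of Sox10 in S6 came evenly from its 4 sequencing lanes, with 1177 to 1242 counts each, and the 95% Clopper-Pearson interval of the level was 224.1 to 237 CPM. Such intervals cover counting error only.

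Foxd3 (Entrez 15221; chr4:99656299-99658671, plus strand, a gene of 1 exon) encodes a forkhead factor of the premigratory crest. Het 3M cultures had 0.249, 0.412 and 1.19 CPM of it, against 0.451, 1.08, 0.0961 and 0.553 CPM in WT 3M. At 12 months the range was 0 to 0.726 CPM in Het 12M with a median of 0.181, against 1.55, 93.5, 0.659 and 0.190 CPM in WT 12M S2, S6, S7 and S13. S6 was 60.4-fold above S2, the next culture, which also bears the WT 12M label. Foxd3 shares 89 exon bases with a predicted miRNA gene, 3.83% of its exon length, and had 1948 counts in S6.

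Sox2 (Entrez 20674; chr3:34649995-34652461, plus strand) encodes an HMG-box factor of stem cells and of immature Schwann cells, and lies inside the long noncoding transcript Sox2ot, with which it shares 0 exon bases. Its level was 0.0995, 0.103 and 0.455 CPM in Het 3M, against 0.246, 1.03, 0.144 and 1.07 CPM in WT 3M. In Het 12M it ran from 0 to 0.653 CPM with a median of 0.155, against 0.230, 46.6, 0.176 and 0 CPM in WT 12M S2, S6, S7 and S13. Outside S6 this was the scarcest of the 8 genes, with 10 or more counts in 4 of the 17 cultures, S6 among them, and differences between the low cultures are within a few counts.

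**Figure D1:**
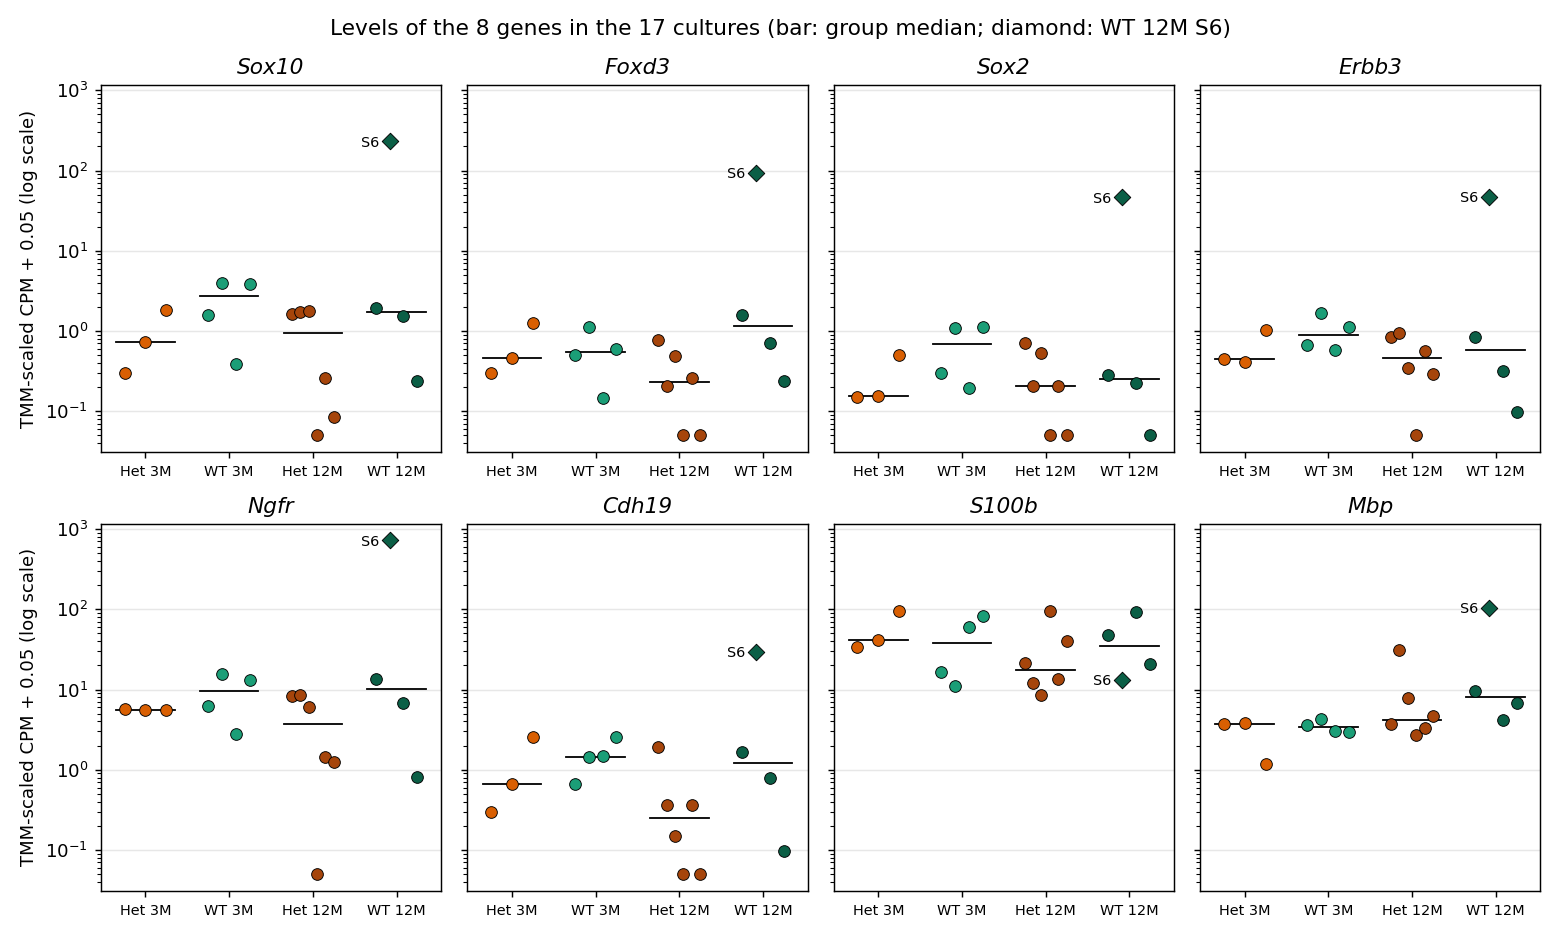
TMM-scaled CPM plus 0.05 on a log axis (vertical) of the 8 genes in the cultures of Het 3M, WT 3M, Het 12M and WT 12M (horizontal), 1 point per culture, with the group median as a bar and WT 12M S6 as a diamond. S6 lies above all other points in 7 panels and among the low points for S100b, at 13.1 CPM.

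Both receptors followed Sox10 in their top cultures, with S6 first and WT 3M S4 next. Erbb3 (Entrez 13867; chr10:128567523-128589635, minus strand), the neuregulin receptor that pairs with Erbb2, stood at 0.398, 0.361 and 0.966 CPM in Het 3M, against 0.615, 1.63, 0.529 and 1.07 CPM in WT 3M. Het 12M cultures ran from 0 to 0.881 CPM with a median of 0.405, against 0.803, 47.0, 0.264 and 0.0475 CPM in WT 12M S2, S6, S7 and S13. The level in S6 was 28.9-fold that of WT 3M S4.

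Ngfr (Entrez 18053; chr11:95568818-95587698, minus strand) encodes the p75 neurotrophin receptor, a surface marker of crest cells, of Schwann cells that do not myelinate, and also of some marrow stromal cells. It was the most abundant of the 6 genes that were low outside S6. Het 3M S8, S10 and S14 had 5.72, 5.52 and 5.51 CPM, against 6.15, 15.4, 2.74 and 13.2 CPM in WT 3M. The 6 Het 12M cultures ran from 0 to 8.61 CPM with a median of 3.66, against 13.6, 722, 6.72 and 0.760 CPM in WT 12M S2, S6, S7 and S13. The 3 Het 3M cultures lay closer together than those of any other group, and S6 was 46.8-fold above WT 3M S4.

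Cdh19 (Entrez 227485; chr1:110888002-110977601, minus strand) encodes a cadherin of Schwann cell precursors. Its levels were 0.249, 0.619 and 2.50 CPM in Het 3M, against 0.615, 1.38, 1.44 and 2.49 CPM in WT 3M. Het 12M ran from 0 to 1.89 CPM with a median of 0.204, against 1.61, 29.6, 0.747 and 0.0475 CPM in WT 12M S2, S6, S7 and S13. The step from the next culture to S6, 11.8-fold, was smaller than for the 3 transcription factors and the 2 receptors.

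S100b (Entrez 20203; chr10:76253836-76261319, plus strand) encodes a calcium-binding protein that serves as a marker of Schwann cells and astrocytes and is also made by chondrocytes and adipocytes. It went against the rest of the set. Het 3M S8, S10 and S14 had 33.8, 41.8 and 95.95 CPM, against 16.4, 11.1, 60.4 and 81.8 CPM in WT 3M S3, S4, S5 and S12. In Het 12M it ran from 8.52 to 95.7 CPM with a median of 17.4, against 48.0, 13.1, 91.4 and 20.8 CPM in WT 12M S2, S6, S7 and S13. S6, with a 95% Clopper-Pearson interval of 11.6 to 14.8 CPM, stood below the median of the other 16 cultures, 36.9 CPM. Het 12M S15, where Sox10, Foxd3, Sox2, Erbb3, Ngfr and Cdh19 had 0 counts, had the second-highest S100b level. A count of 0 there allows up to 0.192 CPM of each gene (3 counts of the library total, without TMM scaling).

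Mbp (Entrez 17196; chr18:82475091-82585637, plus strand) encodes myelin basic protein, and longer Golli transcripts of the same gene are made in immune cells. Gene-level counts do not separate the 2 kinds. Mbp stood at 3.63, 3.81 and 1.14 CPM in Het 3M, against 3.61, 4.19, 3.03 and 2.89 CPM in WT 3M. At 12 months it ran from 2.68 to 31.4 CPM in Het 12M with a median of 4.13, against 9.41, 103, 4.17 and 6.65 CPM in WT 12M S2, S6, S7 and S13. The 31.4 CPM were in Het 12M S9, beside 30050 CPM of Lyz2 and 951 CPM of the macrophage receptor gene Adgre1, against 24.6 and 0.816 CPM of these in WT 12M S6. The part of macrophages in the Mbp level of S9 was not tested. In S6 itself the summed level of 10 macrophage genes was 38.4 CPM, against 22.6 to 37233 CPM over the other 16 cultures.

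Per kilobase of merged exon length, Ngfr led in S6 with 209 CPM per kilobase. Sox10 followed with 75.6, Foxd3 with 40.2 and Sox2 with 22.6, ahead of Mbp with 12.2, S100b with 8.83, Erbb3 with 7.82 and Cdh19 with 6.91. The exon length of Mbp, 8469 bases, takes in the exons of all its transcripts, so its order against the others depends on the scale: by CPM, Mbp at 103 stood above Foxd3 at 93.5 and Sox2 at 46.6.

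The level of each gene relative to Sox10 in the same culture shows whether a gene kept its proportion between S6 and the cultures where Sox10 was low. It was computed in the 10 cultures with at least 20 counts of Sox10. Ngfr stood at 3.13 times Sox10 in S6, against 3.13 to 7.18 times in the other 9 cultures. For Foxd3 the ratio was 0.406 in S6, against 0.0937 to 0.818, for Sox2 0.202 against 0.0937 to 0.409, for Erbb3 0.204 against 0.171 to 0.548 and for Cdh19 0.128 against 0.0571 to 1.42. The ratios of these 5 genes in S6 thus lay inside or at the lower edge of the range of the other cultures, where Sox10 itself had 22 to 96 counts. Outside that range were Mbp, at 0.448 in S6 against 0.645 to 18.9, and S100b, at 0.0568 against 2.86 to 61.1. These are ratios to the same Sox10 value, so its counting error is common to all of them. The low ends for Foxd3 and Sox2 rest on 3 counts each, in Het 12M S9. Those for Cdh19 and Erbb3 rest on 2 and 6 counts in Het 12M S11. The S6 ratio was below the median of the other 9 cultures for Ngfr (4.05), Sox2 (0.258), Erbb3 (0.418) and Cdh19 (0.5). It was above that median for Foxd3 (0.297).

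**Figure D2:**
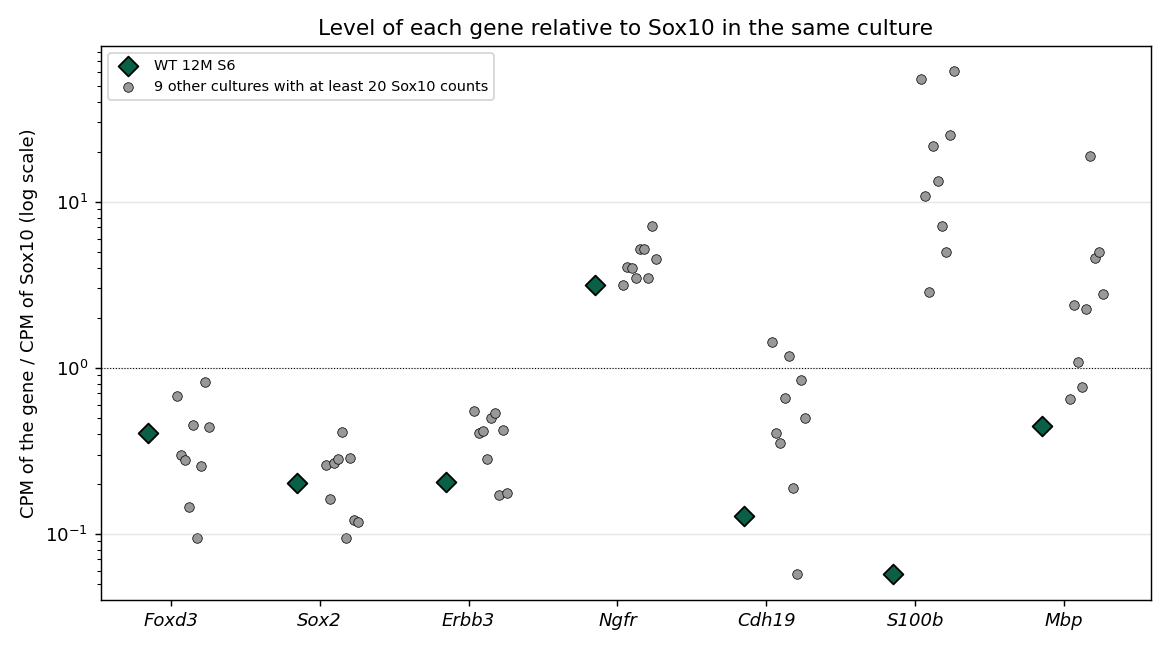
CPM of each gene divided by CPM of Sox10 in the same culture, on a log axis (vertical), for 7 genes (horizontal), with WT 12M S6 as a diamond on the left of each set and the 9 other cultures with at least 20 Sox10 counts as circles. The S6 ratios of Foxd3, Sox2, Erbb3 and Cdh19 lie within the circles, that of Ngfr at their lower edge, and those of Mbp and S100b below all circles.

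Among the 16 cultures other than S6, the same few held the higher traces. For the 6 genes without S100b and Mbp, a choice made after their values were seen, Het 3M S14, WT 3M S4, WT 3M S12 and WT 12M S2 were each among the top 5 cultures for 5 genes, and Het 12M S1 was for 4. Het 12M S15, Het 12M S16, Het 12M S17, Het 3M S8, Het 3M S10, WT 3M S3 and WT 12M S13 were among the top 5 for 0 of the 6. High and low cultures were found in both genotypes and at both ages. The cultures with the higher traces differed from each other by less than 3-fold for Sox10, with 1.60 CPM in Het 12M S1 and 3.89 in WT 3M S4. In the order for Sox10, Het 3M S14 with 31 counts and WT 12M S2 with 33 differ by less than counting error, while WT 3M S12, next above them, had 96 counts.

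Het against WT cultures at 3 months showed no called difference in any of the 8 genes. The fitted log2 difference, Het 3M minus WT 3M, was -1.42 ± 1.76 (SE) for Sox10, -1.50 ± 1.88 for Sox2, -0.75 ± 1.53 for Ngfr and -0.74 ± 1.49 for Erbb3. It was -0.41 ± 1.53 for Cdh19, -0.26 ± 1.02 for Mbp, 0.17 ± 1.58 for Foxd3 and 0.43 ± 0.86 for S100b. The edgeR adjusted p was 1.00 for each, and 0 of 8 genes were called beside 0% of the 14897 tested. The levels of the 2 groups overlapped for every member, where 6.78% of all genes tested did not overlap. The spread is estimated over all groups of the fit, and without S6 the standard error of Sox10 was 1.25, and in a fit of the 2 groups alone 0.87, with an adjusted p of 1.00 in both.

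At 12 months, with S6 left out of WT 12M, no difference between the genotypes passed the test. Het 12M minus WT 12M was -1.68 ± 1.01 for Foxd3, -0.94 ± 1.20 for Cdh19, -0.75 ± 0.98 for Ngfr and -0.48 ± 1.11 for Sox10, and 0.78 ± 1.22 for Sox2 and 0.29 ± 0.88 for Erbb3. S100b stood at -0.76 ± 0.76 and Mbp at 0.38 ± 0.69. The edgeR adjusted p ran from 0.852 to 0.980 over the 8 genes, 0 of which were called beside 0% of 14825 genes. No member's groups were free of overlap, beside 2.50% of all genes. With S6 in WT 12M the fitted differences were -6.08 for Sox10, -6.59 for Foxd3, -5.62 for Sox2, -4.72 for Erbb3, -5.46 for Ngfr, -4.25 for Cdh19, -1.79 for Mbp and -0.45 for S100b. These rest on 1 culture that chose the members, and no test is given for them.

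Age in Het cultures likewise gave no call. Het 12M minus Het 3M was 1.64 ± 1.01 for Mbp, and without Het 12M S9, the culture rich in macrophage transcripts, 0.62. Cdh19 stood at -1.42 ± 1.42, Foxd3 at -1.32 ± 1.51, S100b at -0.85 ± 0.78, Ngfr at -0.41 ± 1.39, Erbb3 at -0.34 ± 1.39, Sox10 at -0.05 ± 1.64 and Sox2 at 0.11 ± 1.81. The edgeR adjusted p ran from 0.946 to 0.999, with 0 of 8 called beside 0% of 14897 genes and 0 of 8 free of overlap beside 1.91%. The spread is estimated over all groups of this fit, S6 among them. Without S6 the SE was 0.73 for Mbp, 0.85 for Erbb3 and 1.17 for Sox2. Mbp then had an unadjusted edgeR p of 0.045 and an adjusted p of 0.944. The sexes were not balanced: Het 3M S8 and S10 were labelled male and S14 female, and in Het 12M S17 alone was male. Xist and Y-linked transcripts went with these labels, so age and sex are partly mixed here. The labelled sex as a term, WT 12M labels included, gave -1.74 for Sox10, -3.05 for Foxd3, -2.40 for Cdh19 and -1.83 for Ngfr. Sox2 stood at -1.46, Erbb3 at -1.24, Mbp at 0.88 and S100b at -0.79, and none of the 8 was called.

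Age in WT cultures, again without S6, gave -2.18 ± 1.28 for Sox2, -1.38 ± 0.95 for Erbb3, -1.0 ± 1.23 for Sox10, -0.89 ± 1.30 for Cdh19 and -0.42 ± 1.09 for Ngfr, as WT 12M minus WT 3M. Mbp stood at 0.97 ± 0.73, Foxd3 at 0.53 ± 1.08 and S100b at 0.35 ± 0.83. The edgeR adjusted p ran from 0.782 to 0.930, with 0 of 8 called beside 0% of 14825 genes and 0 of 8 free of overlap beside 13%. Including S6 gave 4.61 for Sox10, 5.44 for Foxd3, 4.22 for Sox2, 3.64 for Erbb3, 4.31 for Ngfr, 2.43 for Cdh19, 3.17 for Mbp and 0.03 for S100b, as a description of that culture. For 5 of these genes S6 turned the sign of the difference. The difference between the genotype effects at the 2 ages, tested without S6, had an edgeR adjusted p of at least 0.957 for every member, with 0% of 14825 genes called.

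**Figure D3:**
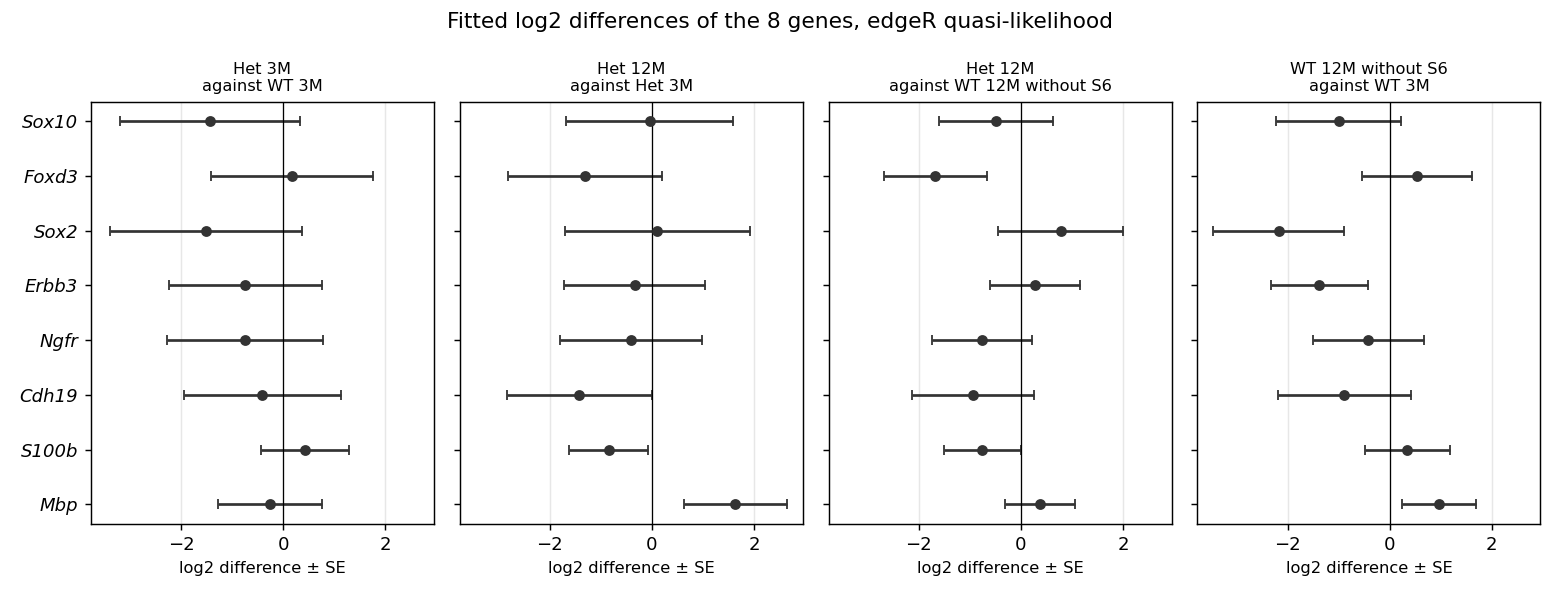
Fitted log2 differences (horizontal, ± SE) of the 8 genes (vertical) in the 4 comparisons, each the first group named minus the second, from edgeR. The 2 comparisons with WT 12M leave out S6, and 0 of the 32 differences passed an adjusted p of 0.05.

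Over the 8 genes the median fitted log2 difference was -0.57 for Het 3M against WT 3M, -0.62 for Het 12M against WT 12M without S6, -0.37 for Het 12M against Het 3M and -0.65 for WT 12M without S6 against WT 3M. Over all genes tested these medians were -0.02, 0.07, 0.07 and 0.01. Between 5 and 6 of the 8 genes were fitted lower in each comparison, none past the threshold. At an unadjusted p under 0.05 edgeR had 239, 964, 489 and 1016 genes in the 4 comparisons in that order, and 0 of the 8 members were among them in each. For Het 12M against Het 3M this depended on S6 being in the fit, since without S6 Mbp had an unadjusted edgeR p of 0.045. DESeq2 called 0, 57, 1 and 60 genes, and limma voom with sample quality weights 1292, 822, 1 and 2614. The only member among these was S100b, in WT 12M without S6 against WT 3M by voom. DESeq2 gave no p for Sox10, Foxd3, Sox2, Mbp, Erbb3 and Ngfr in Het 3M against WT 3M and in Het 12M against Het 3M, so it made no call on these 6 there.

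Other genes of the lineage were read from lists in S6 against the other cultures. Of 10 further crest and Schwann transcription factor genes that passed the filter, 4 were highest in S6 and 3 of them were over 2-fold above the next culture. Tfap2a, an activator of crest genes, had 43.8 CPM in S6 against at most 9.74 in the other cultures, and Nr2f1, an orphan nuclear receptor, 33.9 against at most 5.85. The third was Sox8, a close relative of Sox10, with 9.99 CPM in S6 against at most 4.58. In contrast Sox9, which acts in crest and in chondrocytes, had its lowest level of all cultures in S6, 24.9 CPM against 47.7 to 331, and so did Snai2, a factor of crest emigration and of mesenchyme, with 65.0 CPM against 70.4 to 318. By level in S6 the list was led by Zeb2, a repressor with roles in crest and myelination, at 131 CPM against 20.5 to 241, and by Ets1 at 96.7 CPM against at most 58.4. Egr2, the factor that switches on myelin genes, stood at 45.8 CPM in S6 and at 78.8 in Het 12M S9.

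Surface and cytoplasmic genes of Schwann cells were highest in S6 for 12 of 18, and over 2-fold above the next culture for 7. With the filter applied to the cultures other than S6, 17 of them passed, with 11 highest in S6 and 6 over 2-fold above the next culture, beside 10.5% and 1.71% of the 14825 genes that passed in this way. These counts, like those of the other lists, describe S6 and support nothing further, since a gene can pass the filter through S6 itself. Cadm4, an adhesion molecule through which Schwann cells hold axons, had 731 CPM in S6 against at most 10.3 in the other 16. Gldn, which encodes gliomedin of the node of Ranvier, had 184 against at most 28.5, the integrin gene Itgb4 119 against 19.3 and Dhh, the hedgehog ligand of Schwann cells, 18.7 against 1.23. Next to Cadm4 and Gldn in level were the adhesion genes Ncam1, with 287 CPM against at most 223, and L1cam, with 170 against 136 in Het 12M S15. Erbb2, the partner of Erbb3, had 56.1 CPM in S6 against 16.1 to 41.5. Some genes of the list were low there, among them Ednrb, the endothelin receptor of crest precursors, with 0.432 CPM in S6 and 1142 CPM in Het 12M S9, and Scrg1 with 0.336 CPM in S6 against up to 90.8 in WT 12M S7.

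Myelin genes other than Mbp were highest in S6 for 6 of 10, and over 2-fold above the next culture for 4, and for 5 and 3 of the 8 that passed the filter without S6. Among those were Pmp2, which encodes a lipid-binding myelin protein, with 77.5 CPM in S6 against at most 3.03, and Mal with 31.0 against at most 2.12. Mag, Fa2h and Ugt8a had 0 counts in S6, which allows up to 0.146 CPM. They were scarce elsewhere too, at most 1.09, 0.218 and 0.114 CPM in the other cultures. Cnp, a myelin enzyme gene also active elsewhere, had 97.1 CPM in S6 against 18.7 to 57.1. Pmp22 had the highest level of the list in S6, at 313 CPM, but was second-lowest of the 17 cultures, against a median of 495 in the others.

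Ligands and neurotrophin receptors had 2 of 9 genes highest in S6 and 0 over 2-fold. Nrg1, a ligand of Erbb3, stood at 12.0 CPM in S6 against a median of 12.7 in the others. The neurotrophin receptor gene Ntrk3 had 43.0 CPM in S6 and the ligand gene Bdnf 36.9, against medians of 36.5 and 34.0. Of 6 genes that injured nerves switch on in repair Schwann cells, 4 were highest in S6 and 3 over 2-fold: Lif with 126 CPM against at most 46.3, Gdnf with 45.6 against 13.8 and Artn with 32.1 against 15.6. Jun, the factor that drives the repair state, had 249.8 CPM in S6 against 79.3 to 183, while Cxcl14 at 686 and Runx2 at 46.4 CPM lay inside the range of the others. Olig1 and Shh, of the same list of 8 genes, did not pass the filter and had 1 and 0 counts in S6.

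Other cell types were read the same way. Neither of the 2 melanocyte genes that passed the filter was highest in S6. Tyrp1, Dct and Mlana had 0 counts there, and at most 0.131, 0.0791 and 1.12 CPM in the other cultures. Of 2 oligodendrocyte and astrocyte genes that passed, 0 were highest in S6, and 5 further genes of that list had 0 counts in every culture. Of the 5 neuronal genes that passed, 1 was highest in S6, Tubb3, a tubulin gene of neurons, with 143 CPM against at most 35.8. Stmn2 had its lowest level there, 1.25 CPM against 1.39 to 27.4. Nefm, near the floor, had 1.06 CPM in S6 against at most 0.751. Rbfox3, Elavl3, Elavl4 and Nefl had at most 2 counts in S6 and at most 0.344 CPM in any other culture. Of the 7 perineurial, 10 macrophage and 8 endothelial genes that passed, 0 were highest in S6. The macrophage genes with the highest level there were Lyz2 with 24.6, Csf1r with 6.43, Cd68 with 2.54 and Fcer1g with 1.58 CPM, and the endothelial genes Pecam1 and Cdh5 had 6 and 5 counts. The summed level of 14 bone stroma genes in S6, 35218 CPM against 9098 to 40421 in the other 16, was carried mostly by Col1a1, Col1a2 and Col3a1, with 13356, 11851 and 7126 CPM. Singly, 2 of the 14 were highest in S6 and 0 over 2-fold. The 2 were Col1a1 and Pdgfrb, the latter with 658 CPM against at most 653. At the other end, 8 of the 14 ranked 15 to 17 of the 17 cultures in S6. Pdgfra, a receptor gene of stromal progenitors, at 96.0 CPM and Ly6a, which encodes Sca-1, at 116 CPM had their lowest level there, and Prrx1, the gene whose promoter drives the Cre, was second-lowest at 211 CPM, against 171 to 895 in the others. Of 12 cell-cycle genes 8 were highest in S6, 1 of them over 2-fold, with Mki67 at 93.3 CPM in S6 and at 95.5 in WT 12M S13. The share of any of these cell types in S6 was not measured, and the part of cell division in the levels of the 8 genes was not tested.

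**Figure D4:**
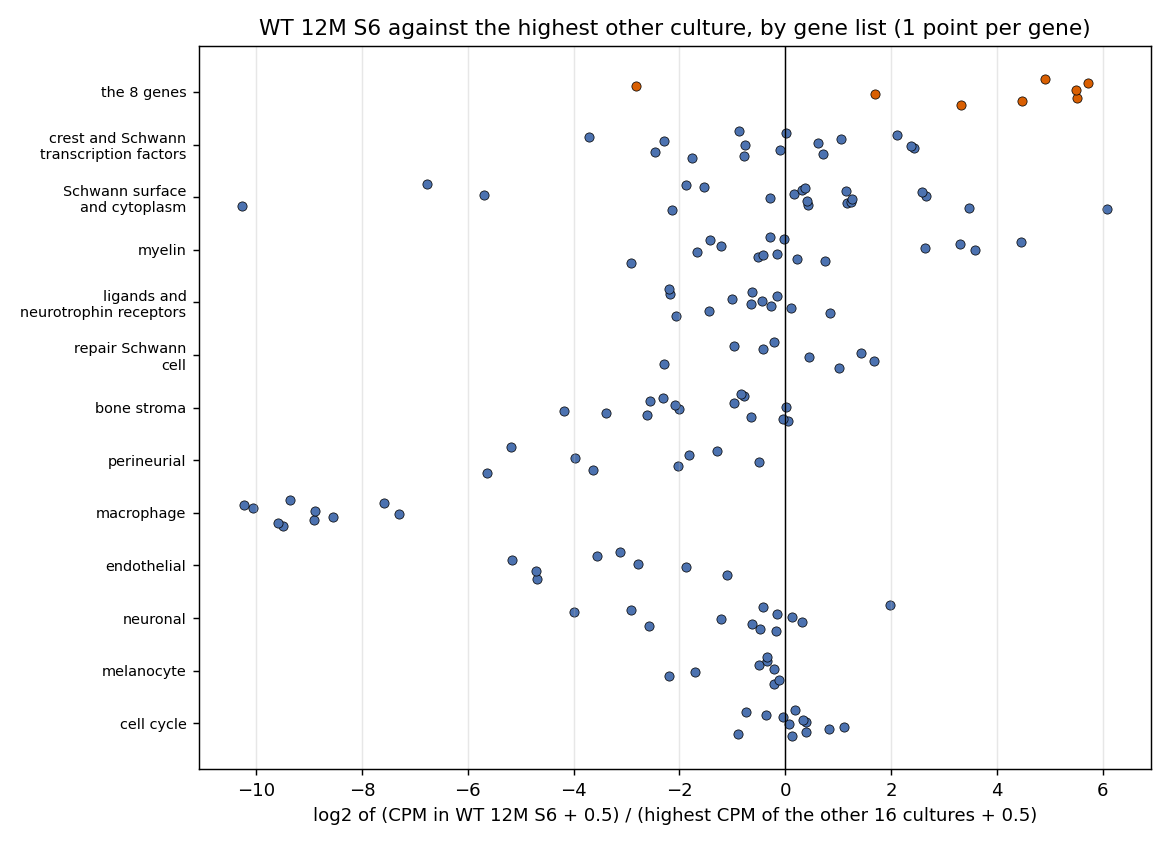
The log2 ratio of CPM plus 0.5 in WT 12M S6 to that of the highest other culture (horizontal) for every gene with at least 1 count, by list (vertical), 1 point per gene. Of the 8 genes 7 lie to the right of 0 and S100b to the left, all macrophage and endothelial genes lie to the left, and the Schwann lists spread to both sides.

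Between groups, edgeR called 0 genes of any of these lists in the 4 comparisons, of which those with WT 12M leave out S6 and the others use all 17 cultures, beside 0% of all genes in each. As the median fitted log2 difference, the further transcription factors had -0.28 for Het 3M against WT 3M and 0.05 for Het 12M against WT 12M without S6, and the Schwann surface genes 0.03 and 0.26. Myelin genes other than Mbp had -0.07 and -0.50, and in WT 12M without S6 against WT 3M 7 of 8 were fitted higher, with a median of 0.54. At an unadjusted p under 0.05, 4 of 17 Schwann surface genes and 0 of 8 myelin genes stood in Het 12M against WT 12M without S6, beside 964 of all 14825 genes, and 1 of 17 and 0 of 8 in WT 12M without S6 against WT 3M, beside 1016.

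The genes whose profile over the 17 cultures was most like that of Sox10 were found by the mean absolute difference of median-centred log2(CPM + 0.5). In order of distance they were Ngfr at 0.45, Cadm4 at 0.47, Foxd3 at 0.66, Sox2 and Erbb3 at 0.68 each, Col15a1 at 0.71, Slc35f1 and Rgs8 at 0.76 each, and Adgrl3 and Uchl1 at 0.78 each. Of these 10, 4 are among the 8 genes described. The likeness rests largely on S6: over the other 16 cultures 3 of the 10 stayed among the nearest, Ngfr at 0.48, Cadm4 at 0.49 and Erbb3 at 0.64. The rest of the 10 nearest without S6 were Plekha6 at 0.58, which was nearer than Erbb3, Mn1 and Dgka at 0.64 each, and Zfp874b, Tns1, Lrrc24 and Gabra3 at 0.65 each. None of these is on the gene lists above.

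Ranked by the ratio of CPM plus 0.5 in S6 to the highest other culture, over 9220 genes with at least 10 CPM in S6, 4 of the 8 genes fell in the first 7. The 8 genes were chosen after levels in S6 had been seen, so their ranks are a description and nothing is read from them. Cadm4 was first at 67.9, followed by Sox10 at 52.6, Foxd3 at 45.9, Ngfr at 45.4, the basement membrane collagen gene Col18a1 at 37.0, the G-protein regulator gene Rgs8 at 35.9 and Sox2 at 30.0. The next were Col15a1, another basement membrane collagen gene, at 25.8, the growth factor gene Fgf5 at 24.0, Tmem200c at 22.7, Slc35f1 at 22.4, Erbb3 at 22.4, Pmp2 at 22.1, the adhesion gene Mcam at 21.5 and Uchl1, a deubiquitinase gene of neurons, at 20.3. Cdh19 ranked 40, Mbp 114 and S100b 9022, and 203 of the 9220 genes had a ratio over 2. By level the largest of these was Col18a1, with 2918 CPM in S6 against at most 78.4 in the others.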

How the data were processed

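The authors aligned the reads to mm10 with Subread and counted them per gene with featureCounts, per the submitters' processing notes; their versions, the gene models and how multiply aligned reads were treated are not given in the sources used here. Library preparation used TruSeq RNA v2, per the labels, a kit that does not mark the strand. The deposited values are raw counts per gene for 68 columns, 4 lanes for each of 17 cultures; 0 columns were left unmapped. Chi-square per degree of freedom between lanes of a culture was 1.02 to 1.06 and between cultures of a group at least 18.5, so lanes were summed. Symbols came from a RefSeq annotation of GRCm38.p6; the 1904 identifiers without one held 0.573% of the counts. Levels are TMM-scaled CPM, and per-kilobase levels divide by the merged exon length of GENCODE M21.

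Differences were fitted with edgeR 4.0.16 in R 4.3.3 (filterByExpr on the 4 groups, TMM, a term per group, 2-sided quasi-likelihood test, Benjamini-Hochberg over all genes tested, threshold 0.05), after the procedure was tested on simulated data. The SE is the difference divided by the square root of its F value. Het 3M against WT 3M and Het 12M against Het 3M came from all 17 cultures, the comparisons with WT 12M from 16 without S6. The labelled sex was not a term, because it goes against Xist and Y-linked transcripts in 3 of the 4 WT 12M libraries and the other, S7, holds both. Alternatives used DESeq2 1.42.0, limma 3.58.1 (voom with sample quality weights), other scalings, filters, covariates and samples. The 8 genes, the lists and the tests were chosen with earlier results of these data known. Named beside the 8 genes are the 10 nearest to Sox10 in profile, the 15 with the largest ratio of S6 to the next culture (pseudocount 0.5 CPM, predicted genes left out), and members of the lists, by their level in S6 for the Schwann lists (the 4 highest, some of which are not reported here), with the further examples chosen after their values were seen. For the 6 genes that were low outside S6, counting error relative to the level is smaller in S6 than elsewhere. For S100b it is not, with 273 counts in S6 and 2079 in WT 12M S7. In each culture 1 count is worth less than 0.1 CPM.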

Additional observations from a re-analysis of the deposited data

Results flagged for a closer look

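Within groups of 4 or 6 cultures, the gap from the extreme culture to its nearest neighbour was compared with the range of the group (Dixon's ratio). Of 24 groups looked at, 10 had a culture that stood apart. In 7 of them it was WT 12M S6, given as a description, with 230.57 CPM of Sox10, 93.515 of Foxd3, 46.565 of Sox2, 103.4 of Mbp, 29.571 of Cdh19, 47.045 of Erbb3 and 721.81 of Ngfr, the values that led to the choice of these genes. The others lay in Het 12M: Mbp in S9 at 31.364 CPM, in the culture rich in macrophage transcripts, Cdh19 in S1 at 1.8864 CPM, which is 26 counts, and S100b in S15 at 95.655 CPM, in the culture with 0 counts of the 6 genes that were low outside WT 12M S6. For independent groups of normally distributed values, chance gives about 1 in 20 groups such a culture. These groups hold CPM without a log and share their cultures between genes, so that rate does not apply to them.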

How the results depend on the processing

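The number of genes called was 0 in each comparison by edgeR. It was 1292 by voom with quality weights for Het 3M against WT 3M, 1 by DESeq2 and 1 by voom for Het 12M against Het 3M, 57 by DESeq2, 822 by voom and 1 with the 2 groups alone for Het 12M against WT 12M without S6, and 60 by DESeq2 and 2614 by voom for WT 12M without S6 against WT 3M. Leaving out each culture in turn gave 0 to 6 calls for Het 12M against WT 12M (6 without Het 3M S14, 2 without WT 12M S13) and 0 to 3 for WT 12M against WT 3M (3 without WT 12M S13, 1 without Het 3M S14, 1 without Het 12M S15). Of 805 fits of a member under an alternative that gave a p, 765 kept sign and call, 39 turned the sign and 1 gained a call, S100b in WT 12M without S6 against WT 3M by voom (1.77, adjusted p = 0.0235). DESeq2 gave no p in 12 more, those of Sox10, Foxd3, Sox2, Mbp, Erbb3 and Ngfr in Het 3M against WT 3M and in Het 12M against Het 3M. The causes were not tested, apart from S6, which is in the 17-culture fits and not in the 16-culture ones. By voom, Foxd3 stood at -0.70 in Het 3M against WT 3M, Sox2 at -0.40 in Het 12M against Het 3M, and Sox2 at -0.91, Mbp at -0.093 and Erbb3 at -0.12 in Het 12M against WT 12M. With the labelled sex as a term, Mbp was 0.11 in Het 3M against WT 3M, Sox2 -1.46 in Het 12M against Het 3M and Erbb3 -0.11 in Het 12M against WT 12M. With S6, Het 12M against WT 12M gave -5.62 for Sox2, -1.79 for Mbp and -4.72 for Erbb3, and WT 12M against WT 3M gave 4.61 for Sox10, 4.22 for Sox2, 2.43 for Cdh19, 3.64 for Erbb3 and 4.31 for Ngfr. Leaving out 1 culture turned the sign of these, given as lowest to highest: in Het 3M against WT 3M Foxd3 (-0.72 to 0.73), Mbp (-0.52 to 0.12), Cdh19 (-1.76 to 0.061) and S100b (-0.16 to 0.99); in Het 12M against Het 3M Sox10 (-0.51 to 0.88), Sox2 (-0.44 to 1.15) and Erbb3 (-0.66 to 0.23); in Het 12M against WT 12M Sox10 (-0.99 to 0.0073), Mbp (-0.60 to 0.70), Cdh19 (-2.45 to 0.041), Erbb3 (-0.24 to 1.47) and Ngfr (-1.29 to 0.15); in WT 12M against WT 3M Foxd3 (-0.36 to 1.09), S100b (-0.30 to 0.85) and Ngfr (-1.32 to 0.11). The levels in S6 moved by less than their counting error under RLE scaling or library totals, and 3 of the 10 genes nearest to Sox10 remained without S6. No paired analysis was possible because the replicate numbers in the labels are sequencing lanes of 1 culture and the S numbers are not shared between groups. With 3 to 6 cultures a group and SEs of 0.69 to 1.88 on the log2 scale, changes of a few-fold in the low genes were not detectable in these fits. The highest SEs are of fits that hold S6. In Het 3M against WT 3M the SE of Sox2 was 1.88 with S6 and 1.23 without. That of Erbb3 was 1.49 with S6, 0.92 without and 0.59 with the 2 groups alone.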

Other observations

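The profiles most like those of the other 2 members that did not follow Sox10 were looked up after their values were seen. Nearest to S100b over the 17 cultures, by mean absolute difference of median-centred log2(CPM + 0.5), were Sh2d4a at 0.53, the ion channel gene Trpv4 at 0.56, Foxd1 at 0.56 and the chondrocyte transcription factor gene Sox5 at 0.56. Nearest to Mbp were Gatm at 0.40, Slc37a1 at 0.44 and Nat8l at 0.46. None of the 10 genes nearest to S100b or to Mbp was among the other members.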
